A study of Mus musculus with 11 samples.

Results

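In C2C12 myotubes, 1044 of 70587 H3K4me1 domains (1.48%) had an end minus start of 15000 bp or more in the deposited list and are called very long domains here. They were chosen on their length alone, so length, read counts and fold from that list are given as a description. They held 23.5 Mb of the 236 Mb in all myotube domains, which is 9.98% of the bases, and 13.7% of the ChIP reads counted inside domains. C2C12 is a mouse myoblast line (strain C3H per the labels) whose cells leave the cell cycle and merge into myotubes once serum is lowered. The study asked how MyoD, MyoG and RNA made at enhancers act during this differentiation. Chromatin immunoprecipitation with sequencing gave H3K4me1 domains and MyoD peaks in myotubes (48 h in 2% horse serum) and in proliferating myoblasts (10% fetal bovine serum), and MyoG peaks in myotubes alone. PolyA RNA-seq was made at 4 h of differentiation in 2% horse serum from cells with RNAi against DRR RNA, an enhancer RNA (DRRi), with RNAi against GFP as the control (GFPi). In the other pair, cells overexpressed DRR RNA (pHAN_DRR1.2), with GFP overexpression as the control (pHAN_GFP). Each of these 9 groups is 1 library of 1 cell line, so differences between groups carry no replicate error, and 2 ribosome-depleted RNA samples were not analysed here.

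H3K4me1, methylation of lysine 4 of histone H3 by a single methyl group, marks enhancers and the flanks of active promoters. Where several enhancers lie side by side, their marked stretches can merge into 1 broad domain. MyoD is the transcription factor that commits cells to the muscle lineage, MyoG is a relative that acts later in terminal differentiation, and both bind E-boxes with the letters CANNTG.

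Very long domains overlapped muscle genes whose own start carried MyoD and MyoG peaks, and the promoters of 5 of them are shown because their genes return in the expression results. The sequences are RefSeq promoters of GRCm38.p6, from 250 bases before to 50 bases after the start, read along the gene (the plus strand of the chromosome for all 5), while all domains and peaks below are in mm9. Capitals mark E-boxes (CANNTG, the same on both strands). Myog (chr1:134289754-134290053) encodes MyoG itself, Tnni1 (chr1:135799171-135799470) slow troponin I, Chrng (chr1:87205561-87205860) the gamma subunit of the fetal acetylcholine receptor, Lmod2 (chr6:24597521-24597820) the thin filament protein leiomodin 2, and Cacna1s (chr1:136052561-136052860) the voltage sensor of the muscle calcium channel.
Myog: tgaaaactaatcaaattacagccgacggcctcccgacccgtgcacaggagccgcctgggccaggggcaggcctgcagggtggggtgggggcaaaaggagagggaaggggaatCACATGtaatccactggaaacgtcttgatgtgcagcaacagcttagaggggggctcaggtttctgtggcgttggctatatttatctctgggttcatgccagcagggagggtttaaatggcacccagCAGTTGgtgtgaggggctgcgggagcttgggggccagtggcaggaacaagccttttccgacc
Tnni1: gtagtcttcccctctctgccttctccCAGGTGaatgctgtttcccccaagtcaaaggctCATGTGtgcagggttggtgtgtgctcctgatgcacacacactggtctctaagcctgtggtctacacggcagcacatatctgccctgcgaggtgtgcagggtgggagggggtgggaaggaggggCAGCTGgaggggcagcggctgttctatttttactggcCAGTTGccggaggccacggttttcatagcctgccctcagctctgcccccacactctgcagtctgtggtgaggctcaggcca
Chrng: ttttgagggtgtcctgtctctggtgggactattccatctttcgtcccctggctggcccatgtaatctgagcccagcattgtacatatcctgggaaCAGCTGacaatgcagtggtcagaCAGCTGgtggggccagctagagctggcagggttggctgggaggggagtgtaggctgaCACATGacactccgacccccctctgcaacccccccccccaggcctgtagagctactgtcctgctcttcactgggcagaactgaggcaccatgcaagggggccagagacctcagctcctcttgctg
Lmod2: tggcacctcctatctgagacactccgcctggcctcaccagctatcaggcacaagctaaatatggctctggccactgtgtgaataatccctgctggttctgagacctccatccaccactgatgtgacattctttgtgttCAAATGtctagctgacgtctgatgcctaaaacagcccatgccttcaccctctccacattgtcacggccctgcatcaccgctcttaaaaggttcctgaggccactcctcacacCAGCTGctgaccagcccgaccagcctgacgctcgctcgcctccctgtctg
Cacna1s: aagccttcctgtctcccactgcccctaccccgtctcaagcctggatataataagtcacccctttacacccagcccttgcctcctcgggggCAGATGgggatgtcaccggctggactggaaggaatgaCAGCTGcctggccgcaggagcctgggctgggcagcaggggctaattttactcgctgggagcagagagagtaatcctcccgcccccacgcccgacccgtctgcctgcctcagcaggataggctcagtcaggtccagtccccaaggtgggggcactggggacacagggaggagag

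The letters CAGCTG, the same on both strands and 1 of the forms of CANNTG, occurred 2 times in the Chrng promoter and 1 time each in those of Tnni1, Lmod2 and Cacna1s, but not in that of Myog. Among covered genes with a locus of their own, 472 of 656 matched a RefSeq promoter by symbol, and 89 of those (18.9%) had the start of the locus inside a very long domain. CAGCTG was found in a promoter of 28 of the 89 genes (31.5%), against 18.3% of the 27025 symbols with a promoter. Unlike the 89, the 27025 are not limited to genes of the expression data with a locus of their own. CANNTG was found for 71 of the 89 genes (79.8%), against 75% of all symbols. These genes have more promoters each than all symbols, and counted per promoter CAGCTG was in 24.6% against 16.3% and CANNTG in 73% against 72.3%. A match of letters is a description and not a binding site.

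At the same 89 starts, a MyoD myotube peak overlapped the window from 250 bases before to 50 after the start in 42 genes (47.2%), against 14.8% of 12983 genes. MyoG peaks did so in 31 genes (34.8%), against 9.16%, and MyoD myoblast peaks in 17 genes (19.1%), against 5.47%. The 89 starts all lie in a myotube domain by selection, and such domains of any length held 85% of MyoD myotube peaks. The 12983 genes were taken with or without a domain at the start. Starts in shorter domains were not counted, so the excess cannot be assigned to very long domains. Myog and Chrng had all 3 kinds of peak there, while Tnni1, Lmod2 and Cacna1s had MyoD and MyoG in myotubes and no MyoD peak in myoblasts.

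The median very long domain spanned 19400 bp (interquartile range 16800 to 24450), against 2400 bp over all myotube domains. Of the 1044 domains, 470 were 20 kb or longer, 143 were 30 kb or longer and 28 were 50 kb or longer. They were also densely read: the median was 48.3 ChIP reads per kb, against 33.8 over all myotube domains. Control reads per kb had a median of 12.9 in very long domains and 12.5 in all domains, and the fold of ChIP over control given by the authors had medians of 3.63 and 2.7. At the threshold, 33 domains measured 15200 bp and 33 measured 15000 bp, the nearest lengths on either side. The domains just inside averaged 2.73 MyoD myotube peaks, 2.27 MyoG peaks and 1 MyoD myoblast peak, and those just outside averaged 2.06, 1.94 and 0.848. Just inside were, in order of position, a domain in Smyd3, 1 near 6330403A02Rik and 1 in Znrf3, and just outside were 1 near Cxcr7, 1 in Gpc1 and 1 in Optc.

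Very long domains were unevenly spread over the genome. Chromosomes 8 and 15 held 116 and 107 of them, 21.4% of the very long domains against 10.7% of all myotube domains. Per 100 Mb this was 88.4 on chromosome 8 and 104 on chromosome 15, against 20.1 to 66.6 on the other 17 autosomes, and the X chromosome had 2. Control reads per kb of domain were 17.6 and 15.5 on chromosomes 8 and 15, against 9.71 to 12.8 on the other autosomes. On chromosome 8, 4 neighbouring bins of 5 Mb from 80 to 100 Mb had 25.3 to 27.5 control reads per kb, at least 2.04 times the median bin (12.4). These high-control bins held 85 very long domains (8.14%) and 1.06% of all myotube domains, and 11.4% of the domains there were very long, against 1.37% elsewhere. The 85 domains had a median fold of 2.07, against 3.71 for the other 959, and fewer peaks, as given below. The part of control reads in the number of very long domains was not tested.

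Very long domains also lay near each other. Of the 1044, 590 (56.5%) had another within 100 kb and 237 within 10 kb, with a median distance of 70.3 kb to the nearest. Neighbouring domains in the list are at least 800 bp apart. Fto, Rbfox2 and Zhx2 lay under 6 very long domains each, Fto in the high-control bins of chromosome 8 and the other two on chromosome 15.

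The longest domain, of 92200 bp, covered 98.9% of the locus of Nfix, a nuclear factor I transcription factor of the fetal muscle programme (chr8:87231001-87323200). It had 19 MyoD and 11 MyoG peaks in myotubes and 5 MyoD peaks in myoblasts, at 136 ChIP reads per kb, and it lies in the high-control bins. The next, of 78800 bp, lay in Zmiz1, a transcriptional coregulator of the PIAS family (chr14:26281201-26360000), and had the most peaks of all: 25 MyoD and 21 MyoG in myotubes and 11 MyoD in myoblasts. Then came domains in Shb, an SH2 adaptor protein (76600 bp), Gab1, a scaffold of receptor tyrosine kinases (73800 bp), and Fancc with 2010111I01Rik (72200 bp). A domain of 68000 bp (chr6:31007001-31075000) touched no gene locus and lay 98 kb from the nearest, Klf14. The rest of the 15 longest domains with a gene covered Rapgef1, an activator of the small GTPase Rap1, Mtss1, Sema6a, Myo1e, Gnao1, Dnaja2 with Gpt2, Smad3, Zfp827, Rreb1 and Man1c1, at 66400 to 61400 bp. Genes of these 15 domains were expressed at very different levels, between 2.19 FPKM (Sema6a, a membrane-bound semaphorin, in DRRi) and 159 FPKM (Dnaja2, a co-chaperone, in GFPi). Nfix was at 83.9 FPKM in DRRi and 67.3 FPKM in GFPi, and at 72.6 FPKM in pHAN_DRR1.2 and 89.1 FPKM in pHAN_GFP. The Sema6a domain was the least marked in myoblasts of the 15, at 11.6% of its bases. Of the 20 longest domains, 5 lay in the high-control bins: those over Nfix, Gab1, Gnao1, Dnaja2 with Gpt2, and Zfp827.

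How much of this chromatin was marked before differentiation was read from the myoblast list of 66863 domains. The median very long domain had 77.6% of its bases in myoblast domains (exact 95% interval of the median 75.6 to 79.3), against 66.7% over all myotube domains. Pooled over bases, the share was 71.5% against 58.7%, so that 16.8 Mb of very long domain were already marked in myoblasts and 6.71 Mb were not. Domains of 10 to 15 kb were close to this, with a median of 75.7%, 67.6% of pooled bases and 4.74% of domains unmarked. The median was 80% under 1 kb and 64.3% at 2 to 5 kb, so high marking was not particular to very long domains. Any overlap was found for 1017 very long domains (97.4%), against 68.3% of all myotube domains, but a longer domain has more bases to overlap with. In 27 very long domains (2.59%) no base was marked in myoblasts, and in 35 (3.35%) under 10% of the bases, against 31.9% of all domains. At the other end, 332 (31.8%) were marked over 90% or more of their bases, against 34% of all domains, and 98 (9.39%) over all of them. Over all myotube domains 28.2% were wholly marked, so that very long domains were more often marked in part. With myoblast domains of a deposited fold of 3 or more only, the median share was 0; 26933 of 70587 myotube domains and 15014 of 66863 myoblast domains had such a fold.

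**Figure D1:**
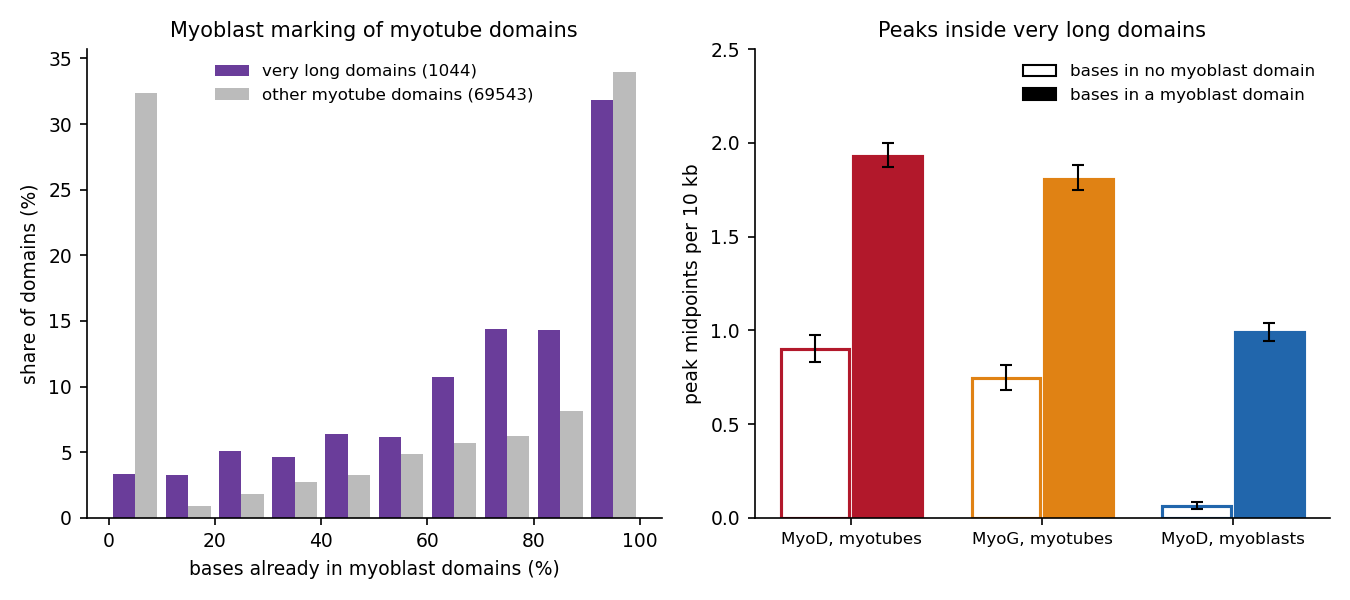
Left, share of domains (%) by the percent of their bases already in myoblast H3K4me1 domains, in steps of 10%, for 1044 very long and 69543 other myotube domains; 3.35% of very long domains lie in the lowest step, against 32.4% of the others. Right, midpoints of MyoD and MyoG peaks per 10 kb of very long domain, open bars for bases in no myoblast domain and filled bars for bases in one, with exact 95% Poisson intervals; the open bars are lower in each list.

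The marked part was usually broken up. A very long domain overlapped 1 myoblast domain in 340 cases, 2 in 366, 3 in 206 and 4 or more in 105. The most was 11, in the domain over Rreb1, a zinc finger factor of Ras signalling, which had 53.1% of its bases marked and a longest myoblast domain of 7000 bp. By contrast, the 59800 bp domain over Myh9, the heavy chain of nonmuscle myosin IIA, overlapped 1 myoblast domain of 58800 bp (98.3%). Myoblasts had 704 very long domains by the same rule. Of the 1044 myotube domains 389 (37.3%) overlapped one of them, and of the 704 myoblast domains 386 (54.8%) overlapped a very long myotube domain. The 704 were covered by myotube domains over a median of 91.1% of their bases, and 1 had no myotube domain at all.

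Among the 27 domains with no myoblast mark, 23 had a MyoD myotube peak, 20 a MyoG peak and 2 a MyoD myoblast peak. Their median length was 17200 bp and 4 of them lay in the high-control bins. The 5 longest lay over Rpl31 with Tbc1d8 (27200 bp), over Hjurp with Heatr7b1 and A730008H23Rik (26000 bp), 20.8 kb from Gata5 (chr2:180090201-180114800), over Csrp3 (22400 bp) and 64.7 kb from Tshr (chr12:92151001-92172200). The domain over Hjurp had 44.2 control reads per kb, the most of all very long domains, at a fold of 1.43. Csrp3 encodes the muscle LIM protein. Its domain had 2 MyoD and 5 MyoG peaks in myotubes and no MyoD peak in myoblasts. Csrp3 was at 0.123 FPKM in DRRi and 0.0823 FPKM in GFPi, and at 1.61 FPKM in pHAN_DRR1.2 and 0.358 FPKM in pHAN_GFP, so it was low in all 4 libraries at 4 h and highest in pHAN_DRR1.2.

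MyoD and MyoG peaks were found in nearly all very long domains. A MyoD myotube peak overlapped 992 of them (95%) by 1 bp or more, against 35.5% of all myotube domains, a MyoG peak 965 (92.4%), against 31%, and a MyoD myoblast peak 791 (75.8%), against 18.4%. These shares grow with length, so densities were compared. Very long domains had 1.66 MyoD myotube peaks per 10 kb (exact 95% Poisson interval 1.61 to 1.71), against 1.44 (1.42 to 1.45) over all myotube domains. MyoG peaks had 1.52 (1.47 to 1.57) against 1.27 (1.25 to 1.28) per 10 kb, and MyoD myoblast peaks 0.735 (0.701 to 0.771) against 0.658 (0.648 to 0.668). These intervals cover counting error of 1 library only and take peaks as independent of each other. All myotube domains include the very long ones, so the paired intervals do not test a difference.

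The excess was not particular to the 15 kb threshold. By peak midpoints, domains under 1 kb had 1.48 MyoD myotube, 1.3 MyoG and 0.626 MyoD myoblast peaks per 10 kb, and domains of 1 to 2 kb had 1.22, 1.07 and 0.569, so density did not climb with length throughout. Domains of 10 to 15 kb had 1.64, 1.5 and 0.755, and very long domains had 1.64, 1.51 and 0.727. In the high-control bins the very long domains had 0.908 MyoD myotube, 0.756 MyoG and 0.291 MyoD myoblast peaks per 10 kb, against 1.74, 1.6 and 0.785 in the other very long domains.

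**Figure D2:**
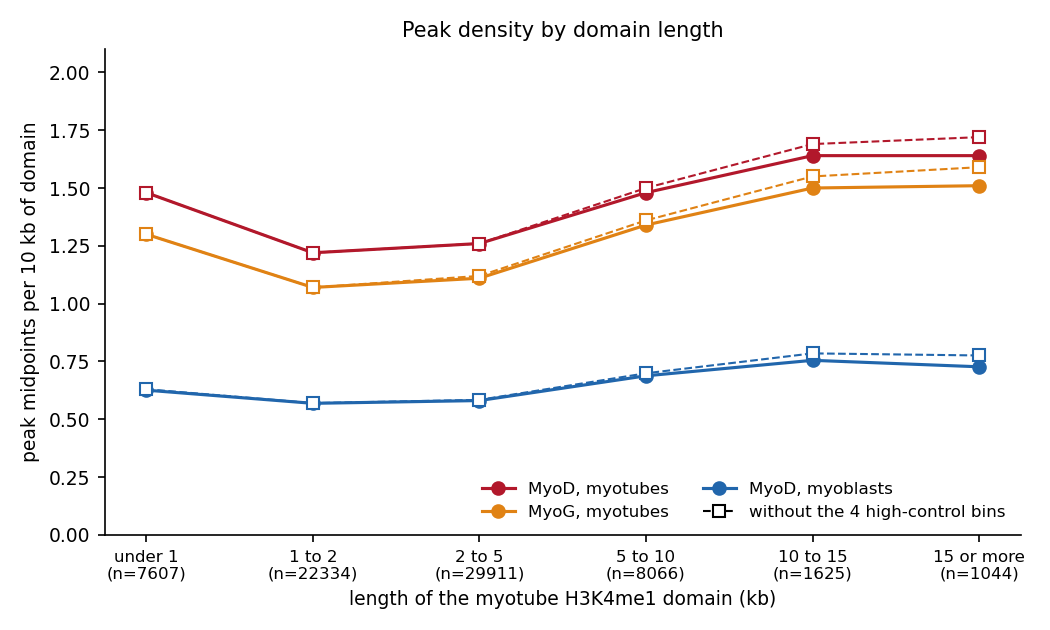
Peak midpoints per 10 kb of myotube H3K4me1 domain (vertical axis) by domain length in kb (horizontal axis, with the number of domains), for MyoD in myotubes, MyoG in myotubes and MyoD in myoblasts; dashed lines with squares leave out the 4 high-control bins. Densities are higher under 1 kb than at 1 to 2 kb, climb from there to 10 to 15 kb and stay about level beyond, at 1.64 for MyoD in myotubes.

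A very long domain had on average 3.73 MyoD myotube peaks (SD 2.55 over domains), 3.42 MyoG peaks (SD 2.42) and 1.66 MyoD myoblast peaks (SD 1.47). All 3 lists were present in 771 domains, and 38 domains had no peak of any list, 13 of them in the high-control bins. At least 10 peaks were counted in 26 domains for MyoD in myotubes, in 20 for MyoG and in 1, that of Zmiz1, for MyoD in myoblasts. After Zmiz1, domains with many MyoD myotube peaks included those over Nfix (19), Mtss1, a membrane-bending actin regulator (16), Fancc with 2010111I01Rik (15) and Cbfa2t3, a corepressor of the ETO family (15). The most MyoG peaks after Zmiz1 were over Myh9 and Ccdc88c (15 each), Shb and Cbfa2t3 (14 each). The Cbfa2t3 domain was 38600 bp long, with 22.3% of its bases in myoblast domains and 2 MyoD myoblast peaks.

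Most very long domains had more MyoD peaks in the myotube list than in the myoblast list. More MyoD peaks in myotubes than in myoblasts were counted in 823 domains, equal numbers in 181 and fewer in 40. The ratio of myotube to myoblast MyoD peaks was 2.25 inside very long domains and 2.19 for the whole lists, so the ratio in very long domains was close to that of the lists. Of 3895 MyoD myotube peaks in very long domains, 1613 (41.4%, exact 95% Clopper-Pearson interval 39.9 to 43) overlapped a MyoD myoblast peak, against 36.5% (36 to 37) of those in any myotube domain. A MyoG peak overlapped 2959 of the 3895 (76%, interval 74.6 to 77.3), against 70.2% (69.8 to 70.7). Seen from myoblasts, 1586 of 1727 MyoD peaks in very long domains (91.8%) were also in the myotube list, against 78.8% in any myotube domain. Peaks were also scored higher there by the authors: the median score was 294 against 198 in any domain for MyoD in myotubes, 198 against 151 for MyoG and 242 against 176 for MyoD in myoblasts. Overlap between lists was not compared at equal score.

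Peaks concentrated in the bases that were already marked. Inside very long domains, MyoD myotube midpoints numbered 0.903 per 10 kb of bases in no myoblast domain (interval 0.832 to 0.978) and 1.93 (1.87 to 2) in myoblast-marked bases. MyoG midpoints numbered 0.745 (0.681 to 0.813) and 1.81 (1.75 to 1.88). The contrast was steepest for MyoD in myoblasts, at 0.0641 (0.0464 to 0.0863) and 0.991 (0.944 to 1.04). The bases in no myoblast domain held 606 MyoD myotube midpoints (15.7%) and 500 MyoG midpoints (14.1%), and 43 MyoD myoblast midpoints (2.52%). Over all myotube domains the densities in unmarked and marked bases lay closer together, at 1.11 and 1.57 for MyoD in myotubes, 0.899 and 1.47 for MyoG and 0.123 and 0.995 for MyoD in myoblasts. Peaks were also somewhat fewer at the ends of very long domains: the outer 10% at either end, together 20% of the length, held 15.2% of MyoD myotube, 14.2% of MyoG and 11.2% of MyoD myoblast midpoints.

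Grouped by marking, the 35 domains under 10%, 202 of 10 to 50%, 475 of 50 to 90% and 332 of 90% or more had 1.49, 1.58, 1.66 and 1.71 MyoD myotube peaks per 10 kb. MyoG followed the same order, at 1.28, 1.4, 1.5 and 1.63. MyoD in myoblasts had 0.0598, 0.445, 0.744 and 0.943. A MyoD myoblast peak was present in 11.4%, 61.4%, 79.8% and 85.5% of the domains of these classes. The classes thus lay closer together in myotube peaks than in myoblast peaks. In the same order, 6, 29, 29 and 21 of their domains lay in the high-control bins, where very long domains had fewer peaks. The classes were not compared without these domains.

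Genes were taken as covered where a coding-sequence locus of the expression tables overlapped a very long domain by 1 bp or more. There were 789 covered genes of 20368 symbols (3.87%). Most lay only partly under the mark: 40 had their whole locus inside and 216 at least 50% of it. Covered genes were long, with a median locus of 63.9 kb against 19.1 kb over all genes, and a long locus is more likely to meet a domain. One gene was covered in 712 domains, 2 in 116, 3 or more in 19 and none in 197 (18.9%, against 43.9% of all myotube domains). The domains without a gene lay a median of 29.4 kb from the nearest locus, and 72 of them over 50 kb away. For 133 covered genes (16.9%) the tables list the locus under several symbols, so that the place of each gene in it is not known. Of the genes named, this holds for Mybph, Tnnt3, Atp2a1, Igf2r, Timp2, Timp3, Actn4, Aspn, Ogn, Schip1 and Sorcs2, and for Rpl31, Tbc1d8, Hjurp, Heatr7b1 and A730008H23Rik.

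Among the gene lists, regulators of chromatin and transcription were covered most often, with 13 of 39 members. Nfix, the YAP and TAZ partner Tead1, Runx1, the histone deacetylase gene Hdac4 and Tead4 were among those in the longest domains. Extracellular matrix genes had 9 of 29 (Col4a2, Timp2, Col4a1, Timp3, Mmp2 and Col6a1 first by domain length) and signalling genes 11 of 36 (Smad3, Notch2, Tcf7l2, Igf2r, Smad7 and Egfr first). Actin and SRF target genes had 8 of 29, with Myh9, Actn1, Tns1, Actn4, Tns3 and Cald1 among them. Muscle-specific lists had smaller shares: 3 of 17 myogenic regulators (Myog, the satellite cell factor Pax7 and the E protein gene Tcf12), 5 of 49 sarcomere genes, 6 of 30 genes of excitation and the synapse, and 4 of 27 of fusion and adhesion. Of 33 cell cycle genes none was covered, nor any of 12 endothelial, blood and neural markers or of 15 fat, cartilage and bone markers. Over all symbols 3.87% were covered, and at that share lists of 12 to 33 genes could easily hold none. All other lists lay above it, the muscle-specific ones at 10.2 to 20%. Locus length differed between lists: the median was 87.8 kb for the chromatin list, 20.8 kb for the sarcomere list and 14.3 kb for the cell cycle list. Of 12 housekeeping genes, Gapdh and Ywhaz were covered.

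Most covered genes were expressed at 4 h of differentiation. At least 1 FPKM was reached by 83.8% of the 789 in DRRi and 84% in GFPi, and by 86.3% in pHAN_DRR1.2 and 85.9% in pHAN_GFP, against 52%, 51.6%, 52.5% and 52.4% of all genes. FPKM counts fragments per kilobase of RNA and scales them to the library, so it can be set side by side for different genes. The median level of covered genes was 12.8 FPKM in DRRi and 12.2 in GFPi, and 14.7 in pHAN_DRR1.2 and 14.3 in pHAN_GFP, against 1.5, 1.39, 1.65 and 1.61 over all genes. At 10 FPKM or more were 56.5% in DRRi and 55.5% in GFPi, and 62% in pHAN_DRR1.2 and 61.9% in pHAN_GFP, against 30.7%, 30.2%, 30.2% and 30% of all genes. Of the 789, 653 reached 1 FPKM in all 4 libraries and 102 in none. Much of this was shared with other marked genes: the 12865 genes over any myotube domain had a median of 7.85 FPKM in DRRi and 7.55 in GFPi, and 862 genes over a domain of 10 to 15 kb and no very long one had 11.8 and 10.8. The RNA was taken at 4 h and the myotube marks at 48 h, so level and mark are from different stages, and in bulk RNA fewer cells of a type and less RNA per cell cannot be told apart.

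The most abundant covered genes were not muscle-specific. Anxa2, a calcium-dependent membrane-binding protein, was at 971 FPKM in DRRi and 1088 in GFPi, and at 1127 in pHAN_DRR1.2 and 1077 in pHAN_GFP. Sparc, a secreted matrix protein, was at 454 and 795 FPKM in DRRi and GFPi and at 1161 and 1282 in pHAN_DRR1.2 and pHAN_GFP. Calr, a chaperone of the endoplasmic reticulum, and the ribosomal protein gene Rpl3 were between 525 and 1006 FPKM in all 4. By the mean of a pair, Scd2, a fatty acid desaturase, completed the 5 highest for DRRi and GFPi, and the proteoglycan genes Bgn and Ogn were among the 5 highest for pHAN_DRR1.2 and pHAN_GFP. The domains of Anxa2, Sparc, Calr, Rpl3, Scd2 and Bgn were 91.7% or more marked in myoblasts and that of Ogn 64.1%, and the domain of Calr lies in the high-control bins.

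Levels differed with the share of the domain that was marked in myoblasts. By this share, taken for the very long domain that overlaps the gene most, the median covered gene was at 0.797 FPKM in DRRi under 10%, 4.93 FPKM at 10 to 50%, 11 FPKM at 50 to 90% and 25.6 FPKM at 90% or more. GFPi had 0.636, 4.94, 10.9 and 24.1 FPKM, pHAN_DRR1.2 had 1.33, 6.72, 14.4 and 30.7, and pHAN_GFP had 0.962, 5.93, 14.1 and 30. The order was the same in all 4 libraries, over 29, 173, 338 and 249 genes.

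**Figure D3:**
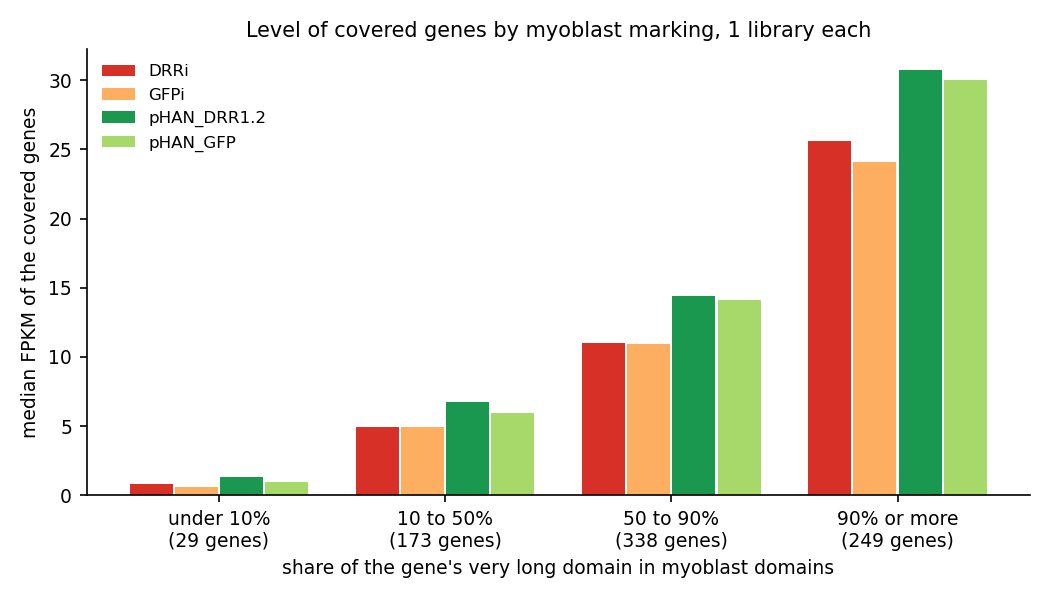
Median FPKM (vertical axis) of genes covered by very long domains, grouped by the share of the domain in myoblast H3K4me1 domains (horizontal axis), in DRRi, GFPi, pHAN_DRR1.2 and pHAN_GFP, 1 library each. Bars climb in each library, in DRRi to 25.6 FPKM in the highest class.

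Some covered muscle genes were lower in DRRi, while most covered genes lay close to their control level. Changes are log2 of the treated over the control library with 1 FPKM added to each, which understates those of weakly expressed genes, and genes averaging under 1 FPKM were left out. Of 664 covered genes so kept, 43 (6.48%) were lower in DRRi by 1.5-fold or more, against 3.5% of 10577 genes, and 27 (4.07%) were that much higher, against 4.66%. At 2-fold, 16 were lower (2.41%, against 0.804%) and 1 was higher (0.151%, against 0.898%). The median change was 0.02 for covered genes and 0.02 for all genes. Genes over 10 to 15 kb domains had 5.82% lower and 6.39% higher by 1.5-fold, and genes over any myotube domain 3.46% and 4.7%. By marking class, the lower genes numbered 0 of 14, 15 of 124, 19 of 293 and 9 of 233, from the least to the most marked.

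In pHAN_DRR1.2 fewer genes differed by that much. Of 679 covered genes, 16 (2.36%) were 1.5-fold or more higher than in pHAN_GFP, against 1.38% of 10699 genes, and 7 (1.03%) were lower, against 0.654%. At 2-fold, 8 were higher (1.18%, against 0.318%) and none was lower, against 0.0841%, with medians of 0.03 for covered genes and 0.02 for all. Genes over 10 to 15 kb domains had 3.34% higher and 1.53% lower by 1.5-fold, so shares above those of all genes were not limited to very long domains. By marking class, the higher genes numbered 0 of 16, 9 of 129, 5 of 301 and 2 of 233.

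Among genes averaging 1 FPKM or more, 9 covered genes (1.36%) had a q-value under 0.05 and a lower level in the authors' deposited table for DRRi. A higher level was found for 3 (0.452%). Over all genes the shares were 0.577% lower and 0.643% higher. With the same limit, 11 (1.62%) were higher and 4 (0.589%) lower in the authors' deposited table for pHAN_DRR1.2, against 1.01% and 0.561%. Under 1 FPKM on average, Kbtbd5 was also lower with a q-value under 0.05 in the authors' deposited table for DRRi, and Lmod2 and Myom3 were also higher in the authors' deposited table for pHAN_DRR1.2. These q-values rest on 1 library per condition and on single coding sequences, the smallest of each gene being used. For Tcf7l2 (lower), 1 coding sequence passed in the authors' deposited table for pHAN_DRR1.2, while the sum of the gene differed by -0.08.

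Myog had 2.61 FPKM in DRRi, GFPi having 10.2 FPKM (log2 change -1.64). It had 65.8 FPKM in pHAN_DRR1.2, pHAN_GFP having 26.3 FPKM (1.29). The q-values in the authors' deposited tables were 0.00848 and 1.38e-08. Its domain (chr1:136168201-136191600, 23400 bp) contained the whole gene, with 11 MyoD and 6 MyoG peaks in myotubes and 2 MyoD peaks in myoblasts. In myoblasts 16.2% of it was marked, by 2 short domains upstream of the gene. Counted from the start of this domain, the next very long one ran from 24.2 to 43.0 kb over Ppfia4, a liprin scaffold gene, with 5 MyoD and 5 MyoG peaks and no myoblast mark. A further one began at 44.2 kb over the same gene. On the other side, the domain at the locus listed for both Mybph and Adora1 ran from -84.8 to -68.4 kb, with 36.6% of its bases marked.

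**Figure D4:**
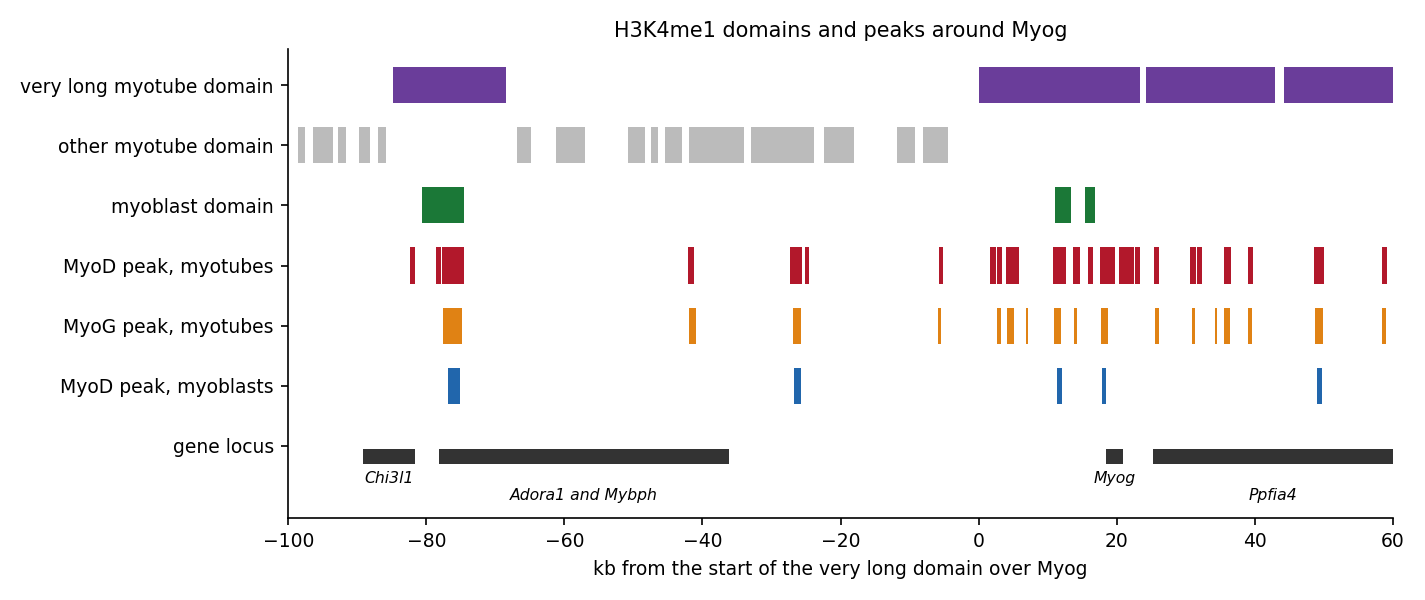
H3K4me1 domains, peaks and gene loci from 100 kb before to 60 kb after the start of the very long domain over Myog (horizontal axis, kb), with 1 track each for very long and other myotube domains, myoblast domains, MyoD and MyoG peaks in myotubes, MyoD peaks in myoblasts and loci. Very long domains run on from Myog through Ppfia4, where the stretch shown has no myoblast domain.

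The 5 covered genes of the sarcomere list were lower than the control in DRRi and higher in pHAN_DRR1.2, Lmod2 by only -0.05 in DRRi. Csrp3, covered but not in that list, differed by 0.05 in DRRi at under 1 FPKM. Tnni1 had 0.887 FPKM in DRRi, compared with 3.21 FPKM in GFPi (-1.16), and 27.2 FPKM in pHAN_DRR1.2, compared with 9.2 FPKM in pHAN_GFP (1.47). Tnni2, fast troponin I, had 1.9 FPKM in DRRi and 6.46 FPKM in GFPi (-1.36), and 12.2 FPKM in pHAN_DRR1.2 and 4.58 FPKM in pHAN_GFP (1.24). All 3 sarcomere genes kept for DRRi were 1.5-fold or more lower there, and all 4 kept for pHAN_DRR1.2 were higher there. The third in DRRi was Tnnt3, fast troponin T, at 0.287 FPKM in DRRi and 1.73 FPKM in GFPi (-1.08). Its average of 1.01 FPKM in that pair was just over the limit of 1 FPKM. Tnnt3 had the smallest of the 4 changes in pHAN_DRR1.2, at 10.1 FPKM there and 4.91 FPKM in pHAN_GFP (0.91). Mybph, myosin-binding protein H, had 0.21 FPKM in DRRi and 0.801 FPKM in GFPi, too low to be kept, and 6.38 FPKM in pHAN_DRR1.2 and 1.51 FPKM in pHAN_GFP (1.56). Lmod2 was low everywhere, at 0.0162 FPKM in DRRi and 0.0486 FPKM in GFPi, and at 1.08 FPKM in pHAN_DRR1.2 and 0.157 FPKM in pHAN_GFP. None of these 5 genes had a q-value under 0.05 in the authors' deposited table for DRRi, nor had Tnnt3 in that for pHAN_DRR1.2. The 5 domains were marked in myoblasts over 15.5 to 50% of their bases.

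The acetylcholine receptor genes Chrnd and Chrng, for the delta and gamma subunits, share 1 very long domain of 27000 bp (chr1:89083001-89110000), which contains both genes. It was 42.2% marked in myoblasts and had 3 MyoD and 5 MyoG peaks in myotubes and 2 MyoD peaks in myoblasts. Chrnd had 3.74 FPKM in DRRi and 17.5 FPKM in GFPi (-1.96), the most negative change among covered genes averaging 5 FPKM or more. In the other pair it had 13.3 FPKM in pHAN_DRR1.2 and 7.75 FPKM in pHAN_GFP (0.71). Chrng had 1.18 FPKM in DRRi and 4.69 FPKM in GFPi (-1.39), and 12.8 FPKM in pHAN_DRR1.2 and 10.1 FPKM in pHAN_GFP (0.32). Atp2a1, the calcium pump of the sarcoplasmic reticulum, had 0.434 FPKM in DRRi and 1.68 FPKM in GFPi (-0.90), averaging just over the limit of 1 FPKM. It had 6.6 FPKM in pHAN_DRR1.2 and 3.62 FPKM in pHAN_GFP (0.72). Its q-values in the authors' deposited tables were 0.639 and 0.182, and that of Chrng for pHAN_DRR1.2 was not under 0.05. Jph2, a junctophilin, differed by -0.25 and -0.07, and Dok7, an activator of the synaptic kinase MuSK, by -0.29 and 0.55. Cacna1s was listed at 0 in DRRi and had 0.043 FPKM in GFPi, 0.511 FPKM in pHAN_DRR1.2 and 0.323 FPKM in pHAN_GFP, under a domain with 5 MyoD and 4 MyoG peaks in myotubes.

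Of the fusion genes, Tmem8c, the fusion protein myomaker, had 1.91 FPKM in DRRi and 7.01 FPKM in GFPi (-1.46), and 24.5 FPKM in pHAN_DRR1.2 and 10.6 FPKM in pHAN_GFP (1.14). Its domain of 24600 bp was 71.5% marked, with 6 MyoD and 7 MyoG peaks in myotubes and 4 MyoD peaks in myoblasts. The other 3 covered genes of that list, Ncam1, Cd9 and Bin1, differed by -0.48 to 0.12 on the log2 scale over both experiments. Pax7 was at 14.2 and 14.4 FPKM in DRRi and GFPi, and at 12.3 and 17.1 FPKM in pHAN_DRR1.2 and pHAN_GFP.

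**Figure D5:**
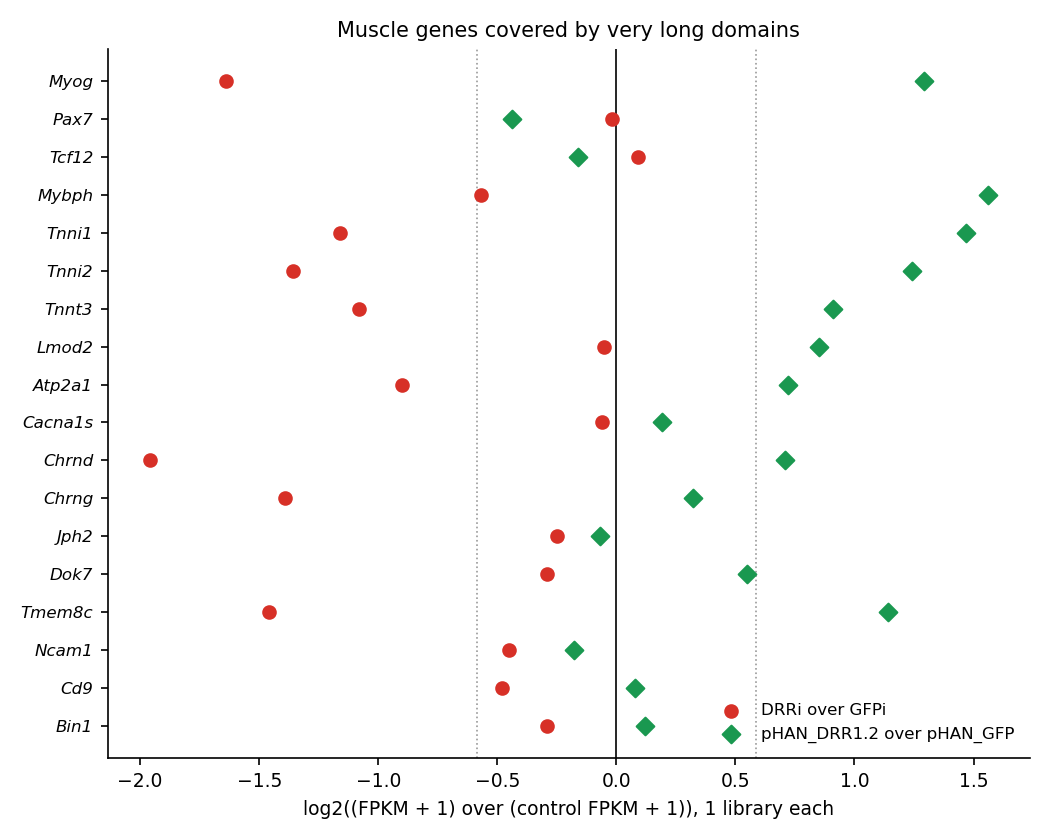
Log2 change (horizontal axis, 1 FPKM added to each library) of the 18 covered genes of the 4 muscle lists, with circles for DRRi over GFPi and diamonds for pHAN_DRR1.2 over pHAN_GFP; dotted lines mark 1.5-fold. Myog, Tnni1, Tnni2, Tnnt3, Atp2a1, Chrnd and Tmem8c lie beyond the left line in DRRi and beyond the right line in pHAN_DRR1.2. Tnnt3 and Atp2a1 averaged only 1.01 and 1.06 FPKM over DRRi and GFPi.

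Outside the muscle lists, Heyl, a transcriptional effector of Notch, had 1.33 FPKM in DRRi and 7.23 FPKM in GFPi (-1.82), and 10.7 FPKM in pHAN_DRR1.2 and 9.65 FPKM in pHAN_GFP (0.13), under a domain that holds the whole gene. Notch1, a Notch receptor, had 15.7 FPKM in DRRi and 7.64 FPKM in GFPi (0.96). Kbtbd5, a kelch protein of muscle, had 0.19 FPKM in DRRi and 1.64 FPKM in GFPi. Cbln1, a secreted synaptic organizer, had 1.7 FPKM in DRRi and 7.92 FPKM in GFPi; the domain over Cbln1 lies in the high-control bins and has no peak. Rgs12, a regulator of G protein signalling, had the highest change of covered genes in DRRi, at 27.7 FPKM in DRRi and 11.2 FPKM in GFPi (1.23), followed among genes of 5 FPKM or more by Notch1, Gab1, Egfr and Tmcc2 (0.96 to 0.89). Among genes averaging 5 FPKM or more, the lowest after Chrnd and Myog were the kinase gene Dapk2 (-1.32), Schip1 (-1.09) and Apobec2 (-1.05).

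In pHAN_DRR1.2, Krt80, a keratin, had 24 FPKM, pHAN_GFP having 10.4 FPKM (1.14), and Sorcs2, a sorting receptor, had 38.9 FPKM, pHAN_GFP having 18.8 FPKM (1.01). Igdcc4, an immunoglobulin superfamily receptor, was the lowest of covered genes averaging 5 FPKM or more, at 5.39 FPKM in pHAN_DRR1.2 and 11.8 FPKM in pHAN_GFP, followed by C1qtnf3 (-0.99), Aspn and Ogn (-0.79 each), and the gelatinase gene Mmp2 at 88.8 FPKM in pHAN_DRR1.2 and 147 FPKM in pHAN_GFP (-0.73). Aspn and Ogn share 1 locus in the tables, and the domain over Mmp2 lies in the high-control bins. The q-values of Heyl, Cbln1, Kbtbd5, Dapk2, Chrng and Kif21b in the authors' deposited table for DRRi were 5.63e-06, 0.000843, 0.0019, 0.0183, 0.0229 and 0.0287, and that of Chrnd was 3.01e-06. Those of Sorcs2, Mybph, Igdcc4, Krt80, Tnni1, Tmem8c and Lmod2 in the authors' deposited table for pHAN_DRR1.2 were 2.07e-06, 3.23e-06, 5.34e-06, 3.55e-05, 9.86e-05, 0.000166 and 0.000726.

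Covered genes of the lists outside muscle were also counted at 1.5-fold. Over all genes 4.66% were that much higher and 3.5% lower in DRRi, and 1.38% and 0.654% in pHAN_DRR1.2. With 8 to 13 covered genes per list, single genes weigh much. None of the 13 chromatin and transcription genes was 1.5-fold or more different in either experiment, with medians of 0.22 and -0.05. Of 11 signalling genes 3 were higher and 1 was lower in DRRi, and none differed by that much in pHAN_DRR1.2. Of 9 matrix genes 1 was lower in each experiment, Sparc in DRRi and Mmp2 in pHAN_DRR1.2, and of 8 actin genes Actn1 was higher (0.60) and Cald1 lower (-0.86) in DRRi.

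All 4 libraries expressed muscle genes, with Myod1 at 33.1 and 37.7 FPKM in DRRi and GFPi and at 65.6 and 68.9 FPKM in pHAN_DRR1.2 and pHAN_GFP. Of 27 markers of endothelial, blood, neural, fat, cartilage and bone cells, 8 to 9 reached 1 FPKM in each library and 4 to 9 were listed at 0. Their summed level was 1424 FPKM in DRRi and 1756 in GFPi, and 3243 in pHAN_DRR1.2 and 2231 in pHAN_GFP, of which 1351 to 3103 FPKM came from Spp1. Their part in the differences was not tested.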

How the data were processed

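ChIP-seq lists of 5 samples and 2 expression tables of 4 polyA RNA libraries were used. H3K4me1 domains carry the authors' count of ChIP reads, count of control reads, fold (their ratio times a constant per file) and p-value, on 200 bp windows of mm9; SICER and mm9 are named in the submitters' processing notes, with no versions. Peak lists of MyoD and MyoG name MACS, per the file headers, and hold a score by the authors; their control sample and cutoff are not given in the sources used here. Expression is the authors' deposited FPKM per coding sequence, with a q-value of the authors from 1 library against 1. TopHat is named in the submitters' processing notes, and each table was normalized on its own. Read depths of the RNA libraries are unknown, which leaves FPKM without a counting error. In each table the condition named for GFP was taken as the control and the remaining one as DRRi or pHAN_DRR1.2. The deposited log2 column is control over treated and was not used.

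Very long domains had an end minus start of 15000 bp or more; widths count both end bases, so the shortest is 15200 bp. A peak or locus was counted in a domain when it overlapped by 1 bp or more, and in comparisons of marked and unmarked bases by its midpoint. FPKM were summed per symbol, genes averaging at least 1 FPKM over a pair were kept, and 1 FPKM was added before log2. High-control bins are bins of 5 Mb with 50 or more domains and control reads per kb at least 1.5 times the median bin. Intervals are exact at 95% (Poisson for densities, Clopper-Pearson for shares, order statistics for medians) and cover counting error only. With 1 library per group no test between groups was made. Scripts were tested on simulated data and used Python 3.11.15, pandas 2.3.3, numpy 2.4.6, SciPy 1.17.1 and matplotlib 3.10.9.

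The members and gene lists were chosen with earlier results of these data known. Named were the 15 longest domains, the 5 domains with the most MyoD or MyoG myotube peaks and the 5 longest with no myoblast mark. Also named were the 3 domains on either side of the threshold, at most 6 covered genes per list, and the 5 genes with the highest level, the 5 highest and the 5 lowest changes at 5 FPKM or more. Up to 8 genes per table were named by the authors' q-value. Myoblast-marked examples (Rreb1, Myh9), genes under 6 domains, Ppfia4 beside Myog and single list members that differed by 1.5-fold were named after their values were seen. Some genes that these rules name are not reported here. Alternatives were other length, overlap, score, fold and locus settings, joined domains, and domains without chromosomes 8 and 15, without the high-control bins, and genes with a locus of their own; the last 3 were chosen after seeing the data.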

Additional observations from a re-analysis of the deposited data

How the results depend on the processing

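Under the alternatives, 70 values stayed within their interval or within 1.5 times the count and 31 moved. Direction could turn only for the median log2 changes, since counts, shares and densities cannot be negative. The median of pHAN_DRR1.2 stayed positive, and the main interval of the DRRi median included 0 (-0.0068 to 0.0506). Domains numbered 2669 at a minimum of 10000 bp, 470 at 20000 bp and 1767 when domains up to 1000 bp apart were joined, and covered genes 1651, 383 and 1452 in the same order. The median share in myoblast domains was 80.5% at 20000 bp, 70.1% after joining, 80.1% with myoblast gaps of up to 1000 bp filled and 0 with myoblast domains of fold 3 or more, so the degree of earlier marking depends on the threshold of the myoblast list. After joining, domains had 1.49 MyoD myotube, 1.35 MyoG and 0.643 MyoD myoblast peaks per 10 kb. Without chromosomes 8 and 15 they had 1.77, 1.62 and 0.797, and without the high-control bins 1.74, 1.6 and 0.785. With peaks of score 100 or more they had 1.34, 1.13 and 0.586. The share of MyoD myotube peaks with a MyoD myoblast peak was 36.4% when 50% of both peaks had to overlap, and that with a MyoG peak 64.5%, or 73.4% at score 100 or more. With 50% of the locus required inside the domain, 216 genes were covered, of which 8 were higher and 16 lower in DRRi and 8 higher and 1 lower in pHAN_DRR1.2, with a median log2 change of 0.0583 in that pair; fewer genes were counted by construction. Restricting to the 656 genes with a locus of their own gave 35 lower and 25 higher in DRRi, and 11 higher and 5 lower in pHAN_DRR1.2. No paired analysis was possible because each group holds 1 library. Broad domains depend on how the caller bridges gaps, and 1 ChIP library per stage gives no estimate of how often a domain of this length would recur.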

Other observations

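Further covered genes had a q-value under 0.05 in the authors' deposited tables and are given as values, chosen after their values were seen. Spon2, a secreted matrix protein of the spondin family, had 1.43 FPKM in DRRi and 4.8 FPKM in GFPi, with a q-value of 0.0381 in the authors' deposited table. Cobl, an actin nucleator, had 1.74 FPKM in DRRi and 4.49 FPKM in GFPi, with a q-value of 0.0375 in the authors' deposited table. Scml4, a polycomb-related gene under a domain with 5 MyoD and 6 MyoG peaks in myotubes and none of MyoD in myoblasts, had 5.6 FPKM in pHAN_DRR1.2 and 3.04 FPKM in pHAN_GFP, with a q-value of 0.02 in the authors' deposited table. Gulp1, an engulfment adaptor, had 21.4 FPKM in pHAN_DRR1.2 and 33.9 FPKM in pHAN_GFP, with a q-value of 0.0236 in the authors' deposited table. Myom3, a myomesin of the sarcomere M-band, was low, at 0.747 FPKM in pHAN_DRR1.2 and 0.196 FPKM in pHAN_GFP, under a domain with 6 MyoD and 6 MyoG peaks in myotubes, 28.6% of which was marked in myoblasts.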
